A study of Mus musculus with 16 samples.

Results

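The 10 genes described here stood higher in adult lung after adult second-hand smoke: Csrnp1, Cebpd, Errfi1, Rasd1, Pim3, Map3k6, Depp1, Fam107a, Tmcc3 and Mettl21e. They are 10 of the 18193 genes named on the array and are measured by 22 of its 45037 probe sets, all of which are given. They were chosen from the measured values of the 2 comparisons of adult smoke with adult air, so those values describe the choice and test nothing further. The same values divide them into 7 genes past the threshold after either exposure in utero and 3 past it after smoke in utero alone.

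Male Balb/c mice breathed second-hand smoke (SHS) or filtered air in utero and again as adults, in all 4 combinations, and total RNA of the left lung was measured at an age of 15 weeks. Each group is written with a first letter for the exposure in utero and a second for the adult exposure, S for SHS and A for filtered air. SS mice had SHS at both times, AS mice had air in utero and SHS as adults, SA mice had SHS in utero and air as adults, and AA mice had air throughout. SHS was sidestream cigarette smoke with a particle load of 10 mg/m3 given 5 hours daily on all 7 days of the week, and the air controls spent the same hours in filtered air. The labels call the 4 replicates of a group biological replicates, and they name no litter, batch or hour of collection.

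Values are log2 expression values on Affymetrix arrays, used as deposited, so a difference of 1 is a 2-fold difference in signal. The array medians lay between 6.90 and 6.93, and the values were therefore taken as already normalized between arrays. AS replicates 3 and 4, and likewise SS replicates 1 and 2, differed by little more than technical noise, with variable probe sets differing at most 1.35 times as much as quiet ones, against 2.84 to 5.96 times in the other 22 pairs of replicates. Both pairs were therefore averaged to 1 sample each, leaving 3 SS, 3 AS, 4 SA and 4 AA samples. Quiet probe sets differed by 0.21 to 0.26 (root mean square) between AS replicates 3 or 4 and AS replicates 1 or 2. In the remaining pairs that were not near-identical they differed by 0.07 to 0.13. The averaged AS replicates 3 and 4 thus stood apart from the other AS samples also at quiet probe sets, and the cause was not tested. The mean of the markers of alveolar type 2 cells lay between 13.62 and 13.90 in the 14 samples, that of alveolar type 1 cells between 12.53 and 12.70 and that of club cells between 12.81 and 13.09. In whole lung, fewer cells of a type and less RNA per cell cannot be told apart.

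Many of these genes are known for quick induction by stress, growth factors or hormones. Immediate early genes are transcribed within minutes of a stimulus from factors already present in the cell, while the glucocorticoid receptor enters the nucleus on binding its hormone and activates genes such as Fkbp5, Per1 and Tsc22d3. Errfi1, Rasd1, Cebpd, Depp1, Map3k6 and Fam107a have all been described as glucocorticoid-induced in one tissue or another. In lung, glucocorticoids are known for their part in maturation before birth and for the restraint of inflammation in the adult.

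After smoke in utero, all 10 genes had at least 1 probe set past the threshold and higher in SS than in SA mice, where 1.08% of all genes had one. After air in utero, 7 of the 10 had one higher in AS than in AA mice, where 1.02% of all genes had one. The same 7 genes, Csrnp1, Depp1, Rasd1, Errfi1, Tmcc3, Cebpd and Pim3, had 1 probe set past it in both, against 0.11% of all genes. Mettl21e, Map3k6 and Fam107a passed it in SS against SA alone. Past the threshold means a two-sided adjusted p under 0.05 in limma, with Benjamini-Hochberg adjustment over all 45037 probe sets. These shares are the ones the genes were picked from, and nothing is read from them.

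At the probe set with the highest mean of each gene, here called its brightest, the counts were 10 of 10 in SS against SA (0.874% of all genes) and 5 of 10 in AS against AA (0.594%). By probe set they were 19 of 22 and 11 of 22, and none of the 22 passed in the lower direction. Of all 45037 probe sets, 348 passed in the higher and 389 in the lower direction in SS against SA. In AS against AA, 266 passed in the higher and 433 in the lower direction. Over the brightest probe sets the differences ran from 0.51 for Tmcc3 to 1.70 for Fam107a in SS minus SA, with a median of 1.06, while the median over all genes was -0.01. In AS minus AA they ran from -0.02 for Fam107a to 1.70 for Csrnp1, with a median of 0.60, and the median over all genes was 0.02. Cebpd lay just inside the threshold in both, with adjusted p-values in limma of 0.04998 and 0.0483. The nearest outside it in AS against AA was the brightest probe set of Pim3, with an adjusted p of 0.09, and, counting any probe set of a gene, Map3k6, with 0.358. Without SS replicate 3, Rasd1, Tmcc3, Mettl21e, Map3k6 and Fam107a passed in SS against SA, which is 5 of 10. Over the array, 171 probe sets then passed in either direction, against 737 with all samples. Without AA replicate 2, Csrnp1, Depp1 and Rasd1 passed at their brightest probe sets in AS against AA, and Pim3 also passed at another, which is 4 of 10 by any probe set. The array then had 185 probe sets past the threshold, against 699 with all samples.

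**Figure D1:**
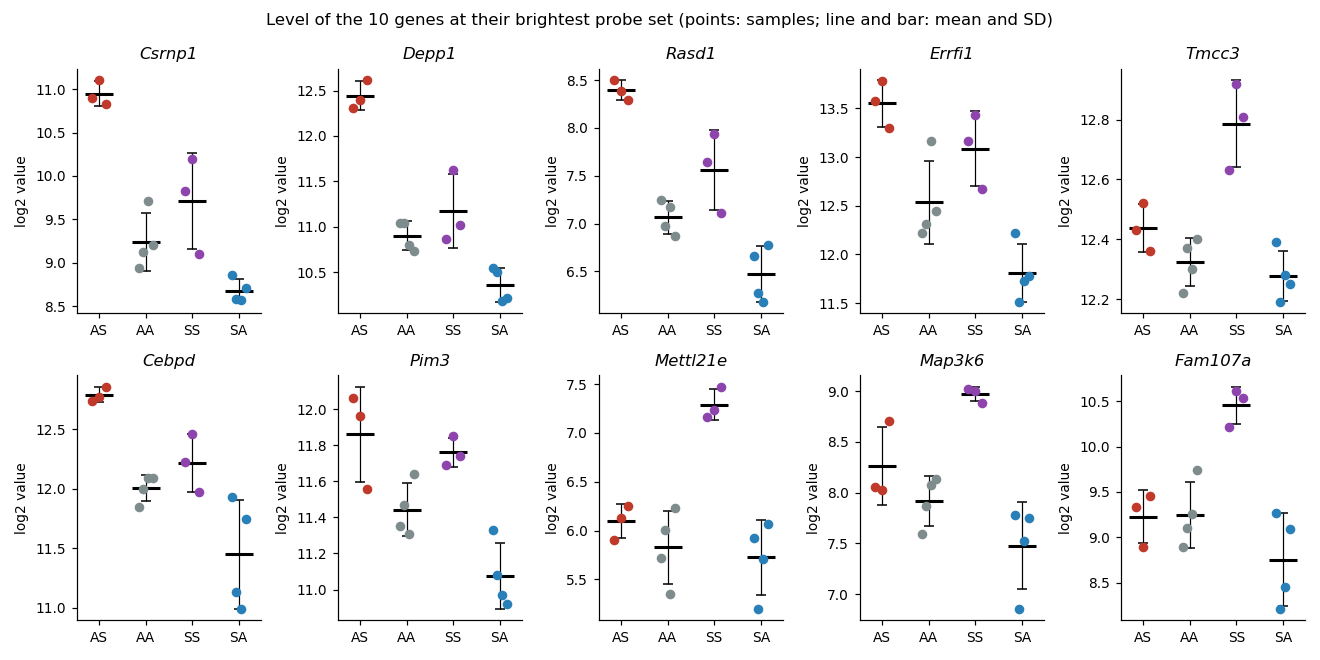
Log2 value of each gene at its brightest probe set in every sample, by group, with a horizontal line for the mean and a bar for the SD (3 AS, 4 AA, 3 SS and 4 SA samples; each panel has its own vertical scale). The AS samples stand highest for Csrnp1, Depp1 and Rasd1, and the SS samples stand highest for Tmcc3, Mettl21e, Map3k6 and Fam107a.

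**Figure D2:**
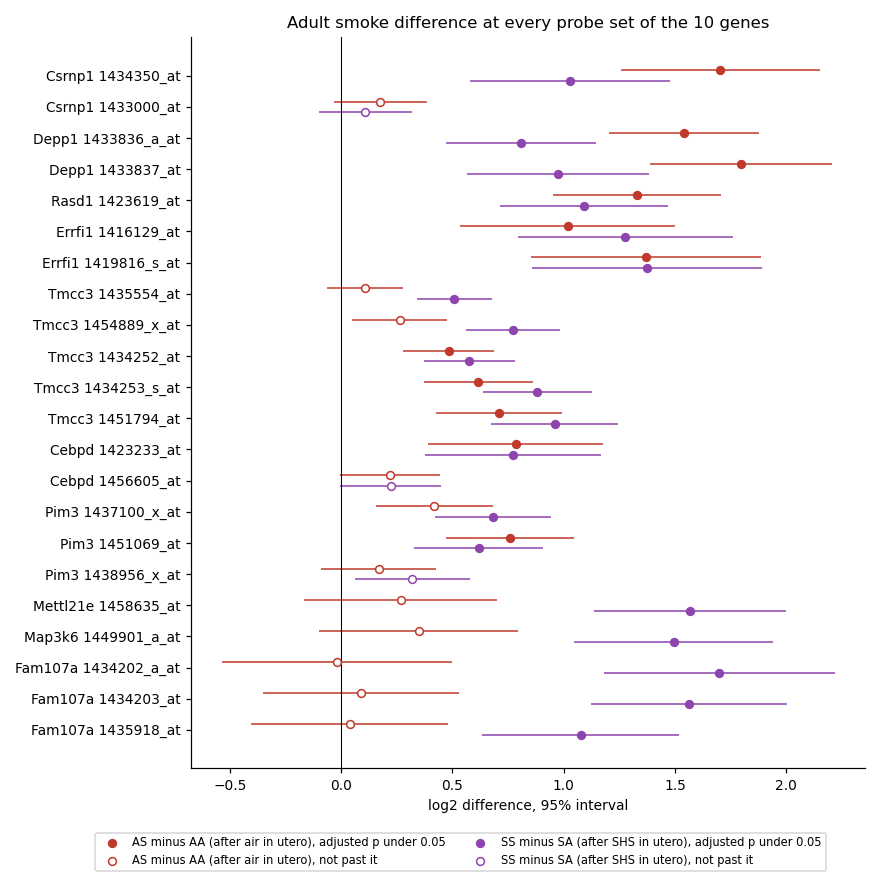
Log2 difference between adult SHS and adult air at all 22 probe sets, after air in utero (AS minus AA) and after SHS in utero (SS minus SA), with 95% intervals from the fit; filled points have an adjusted p under 0.05. The 3 Fam107a probe sets have AS minus AA differences between -0.02 and 0.09 and SS minus SA differences between 1.08 and 1.70.

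Csrnp1 encodes a nuclear protein that binds DNA and is known as an early response gene induced through AXIN1. Its values were 10.90, 11.11 and 10.83 in AS mice, against 8.93, 9.12, 9.72 and 9.21 in AA mice. They were 9.83, 10.19 and 9.10 in SS mice, against 8.86, 8.58, 8.57 and 8.71 in SA mice. Every sample of adults in SHS lay above every sample of adults in air with the same exposure in utero, and SS and AA values overlapped. The differences were 1.70 ± 0.21 for AS minus AA (3.25-fold; ± gives the standard error of the fit) and 1.03 ± 0.21 for SS minus SA (2.04-fold). The second probe set, which averaged 6.26 ± 0.18 in AS mice and 6.08 ± 0.04 in AA mice (SD, n = 3 and 4), passed in neither comparison. The SS difference lost its call without SS replicate 3, at 0.79, without SA replicate 2 or 3, at 0.99 each, and without the averaged SS replicates 1 and 2, at 0.97.

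Of the Csrnp1 windows, the 1 shown is that with AP-1 motifs, the sites of the Fos and Jun proteins that early response genes encode. It covers chr9:119982974-119983273 on the minus strand of GRCm38.p6, in the RefSeq promoter table, and runs from 250 bases before to 50 bases after an annotated start. Capitals mark the matches, which are TGANTCA for AP-1 and GCGTG for the core that the aryl hydrocarbon receptor binds, on either strand.
Csrnp1: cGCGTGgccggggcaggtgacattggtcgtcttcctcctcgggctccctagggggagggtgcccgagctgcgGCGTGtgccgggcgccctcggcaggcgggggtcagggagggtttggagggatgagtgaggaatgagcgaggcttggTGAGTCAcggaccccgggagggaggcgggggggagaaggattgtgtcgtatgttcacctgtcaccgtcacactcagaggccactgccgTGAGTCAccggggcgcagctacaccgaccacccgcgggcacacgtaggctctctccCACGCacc
The AP-1 matches begin 102 and 14 bases before the start. A match describes these letters and does not show that a factor binds there.

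Cebpd encodes a C/EBP transcription factor known for its induction in the acute phase response and by glucocorticoids. Its values were 12.74, 12.77 and 12.86 in AS mice, against 11.85, 12.00, 12.09 and 12.09 in AA mice. In SS mice they were 12.23, 12.46 and 11.97, against 11.93, 11.13, 10.99 and 11.75 in SA mice. The groups did not overlap in either pair, although SS replicate 4 and SA replicate 1 lay close together. The differences were alike in size, at 0.78 ± 0.18 for AS minus AA (1.72-fold) and 0.77 ± 0.18 for SS minus SA (1.71-fold). Being so near the threshold, both calls were lost on leaving out any 1 of SS replicates 2 to 4, SA replicate 2, AS replicates 1 and 2 and AA replicates 1 to 4, or either averaged pair. AS minus AA then lay between 0.73 and 0.81 and SS minus SA between 0.65 and 0.90. The AS minus AA call alone was also lost without AS replicate 3, at 0.76, and the SS minus SA call alone without AS replicate 4, at 0.77, or SA replicate 3, at 0.62. A dim second probe set, at 5.99 ± 0.17 in AS mice and 5.77 ± 0.17 in AA mice, passed in neither.

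Errfi1, also called Mig6, encodes a cytosolic protein that binds and inhibits the EGF receptor and its relatives. Its brightest probe set read 13.58, 13.78 and 13.30 in AS mice, against 12.22, 12.31, 13.16 and 12.45 in AA mice. It read 13.16, 13.43 and 12.67 in SS mice, against 12.22, 11.51, 11.73 and 11.78 in SA mice. The highest AA sample, replicate 3, came close to the lowest AS sample, and the same AA sample was the highest of its group for Csrnp1. AS minus AA was 1.02 ± 0.23 (2.02-fold) and SS minus SA was 1.28 ± 0.23 (2.42-fold). At the second probe set both were 1.37 ± 0.24. The AS minus AA call at the brightest probe set was lost without AA replicate 1, 2 or 4, without AS replicate 1 or 2, without SA replicate 3 and without either averaged pair, with values between 0.90 and 1.14. The SS minus SA call was lost without SS replicate 3, at 1.11, and without the averaged SS replicates 1 and 2, at 1.24.

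The Errfi1 window at chr4:150854820-150855119 on the plus strand of GRCm38.p6 is shown because it is the 1 window of the 18 that holds the full cAMP response element TGACGTCA, a site of CREB proteins. Capitals mark that element, which begins 51 bases before the start, and 3 GCGTG cores.
Errfi1: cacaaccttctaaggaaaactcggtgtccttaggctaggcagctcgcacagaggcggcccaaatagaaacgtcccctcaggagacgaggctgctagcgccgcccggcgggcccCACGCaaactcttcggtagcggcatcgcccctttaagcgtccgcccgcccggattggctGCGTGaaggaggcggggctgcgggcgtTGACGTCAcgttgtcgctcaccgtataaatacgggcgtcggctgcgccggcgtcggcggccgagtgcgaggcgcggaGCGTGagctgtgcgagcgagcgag
Among all 32851 promoter windows of the table, 1.79% held the cAMP response element.

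Rasd1 encodes a Ras-like small GTPase first described as induced by dexamethasone. It read 8.50, 8.38 and 8.29 in AS mice, against 7.24, 6.98, 7.17 and 6.87 in AA mice. It read 7.64, 7.94 and 7.11 in SS mice, against 6.67, 6.27, 6.18 and 6.78 in SA mice. Neither pair of groups overlapped, and the lowest SS sample, replicate 4, fell within the AA values. AS minus AA was 1.33 ± 0.18 (2.51-fold) and SS minus SA was 1.09 ± 0.18 (2.13-fold), and both calls held without any 1 sample.

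Pim3 encodes a serine/threonine kinase of the PIM family, which promotes survival and protein synthesis. Its brightest probe set read 12.06, 11.96 and 11.56 in AS mice, against 11.35, 11.47, 11.31 and 11.64 in AA mice, and these groups overlapped. It read 11.69, 11.85 and 11.74 in SS mice, against 11.33, 11.08, 10.97 and 10.92 in SA mice, with no overlap. AS minus AA was 0.42 ± 0.12, not past the threshold (limma adjusted p = 0.09), and 0.57 without the averaged AS replicates 3 and 4, when it passed. SS minus SA was 0.68 ± 0.12 (1.61-fold) and lost its call without SS replicate 3, at 0.64. The next probe set passed in both, at 0.76 ± 0.14 and 0.62 ± 0.14, and the dimmest, averaging 5.45 ± 0.15 in AS mice and 5.28 ± 0.06 in AA mice, passed in neither. The call of Pim3 after air in utero thus rests on 1 of its 3 probe sets. At that probe set the averaged AS replicates 3 and 4 lay 0.99 above the AA mean, against 0.12 at the brightest. AS replicates 1 and 2 lay 0.71 and 0.57 above the AA mean at that probe set, against 0.62 and 0.52 at the brightest.

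Map3k6 encodes ASK2, a kinase that works with ASK1 at the head of the JNK and p38 stress cascades. It read 9.02, 9.001 and 8.89 in SS mice, against 7.78, 6.86, 7.53 and 7.75 in SA mice. It read 8.06, 8.03 and 8.71 in AS mice, against 7.59, 7.87, 8.07 and 8.14 in AA mice. SS samples lay above all others, while AS and AA overlapped, with the averaged AS replicates 3 and 4 alone above the AA range. SS minus SA was 1.49 ± 0.21 (2.81-fold), and AS minus AA was 0.35 ± 0.21, with a 95% interval of -0.10 to 0.79.

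The Map3k6 window at chr4:133240568-133240867 on the plus strand of GRCm38.p6 and the Fam107a window at chr14:8309728-8310027 on the minus strand are shown together because they hold the glucocorticoid response core ACANNNTGT, which no window of the other 5 genes held. Capitals mark that core, which begins 179 bases before the Map3k6 start and 118 before the Fam107a start, and 1 GCGTG core in Map3k6.
Map3k6: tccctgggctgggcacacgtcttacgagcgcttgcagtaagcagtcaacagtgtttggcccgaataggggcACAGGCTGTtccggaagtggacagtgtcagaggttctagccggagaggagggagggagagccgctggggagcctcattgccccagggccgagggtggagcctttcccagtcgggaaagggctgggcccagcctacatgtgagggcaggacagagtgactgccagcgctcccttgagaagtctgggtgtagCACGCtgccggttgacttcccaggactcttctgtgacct
Fam107a: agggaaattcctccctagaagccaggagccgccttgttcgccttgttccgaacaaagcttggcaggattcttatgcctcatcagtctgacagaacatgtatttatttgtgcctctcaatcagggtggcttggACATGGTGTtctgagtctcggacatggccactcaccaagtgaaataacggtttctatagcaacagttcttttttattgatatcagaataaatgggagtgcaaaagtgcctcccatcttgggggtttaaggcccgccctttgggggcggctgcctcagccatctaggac
A second Fam107a window, offset by 2 bases, holds the same match. The core stood in 6.85% of all 32851 windows.

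Fam107a encodes an actin-binding protein that in mouse brain is induced by stress and glucocorticoids. Its brightest probe set read 10.22, 10.61 and 10.53 in SS mice, against 9.27, 8.21, 8.45 and 9.09 in SA mice. It read 9.34, 8.90 and 9.45 in AS mice, against 8.89, 9.10, 9.26 and 9.74 in AA mice. Every SS sample lay above every other sample, and the AS samples lay within the range of the AA samples. SS minus SA was 1.70 ± 0.24 (3.25-fold), and AS minus AA was -0.02 ± 0.24, with a 95% interval of -0.54 to 0.50. The other probe sets gave 1.56 ± 0.21 and 1.08 ± 0.21 for SS minus SA and 0.09 and 0.04 for AS minus AA.

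Depp1 encodes a protein induced by progesterone and by FOXO factors, with a described part in autophagy. Its brightest probe set read 12.31, 12.40 and 12.62 in AS mice, against 11.04, 11.04, 10.80 and 10.73 in AA mice. It read 10.86, 11.63 and 11.02 in SS mice, against 10.54, 10.50, 10.18 and 10.21 in SA mice. AS samples stood more than 1 log2 unit above AA samples, whereas SS samples overlapped with AA samples. AS minus AA was 1.54 ± 0.16 (2.91-fold) and SS minus SA was 0.81 ± 0.16 (1.75-fold), and the second probe set gave 1.79 ± 0.19 and 0.97 ± 0.19. The SS difference lost its call without SS replicate 3, at 0.58, and without SA replicate 3, at 0.75.

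Tmcc3 encodes a coiled-coil membrane protein of the endoplasmic reticulum. Its brightest probe set read 12.63, 12.92 and 12.81 in SS mice, against 12.39, 12.19, 12.28 and 12.25 in SA mice. It read 12.43, 12.52 and 12.36 in AS mice, against 12.22, 12.37, 12.30 and 12.40 in AA mice. SS lay above all other samples, and AS and AA overlapped. The 5 probe sets of the gene disagreed on AS minus AA, which was 0.11 ± 0.08 and 0.26 ± 0.10 at the 2 brightest, neither past the threshold (limma adjusted p = 0.451 and 0.166). It was 0.48 ± 0.10, 0.62 ± 0.11 and 0.71 ± 0.13 at the other 3, which passed. SS minus SA passed at all 5, from 0.51 ± 0.08 to 0.96 ± 0.13. The averaged AS replicates 3 and 4 lay 0.03 above the AA mean at the brightest probe set and 0.99 above it at the dimmest. AS replicate 1 lay 0.10 and 0.71 above it, and AS replicate 2 lay 0.19 and 0.43 above it. Probe sets of 1 gene can read different ends or forms of its transcript, and the files give no probe positions. The cause of the disagreement was not tested.

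**Figure D3:**
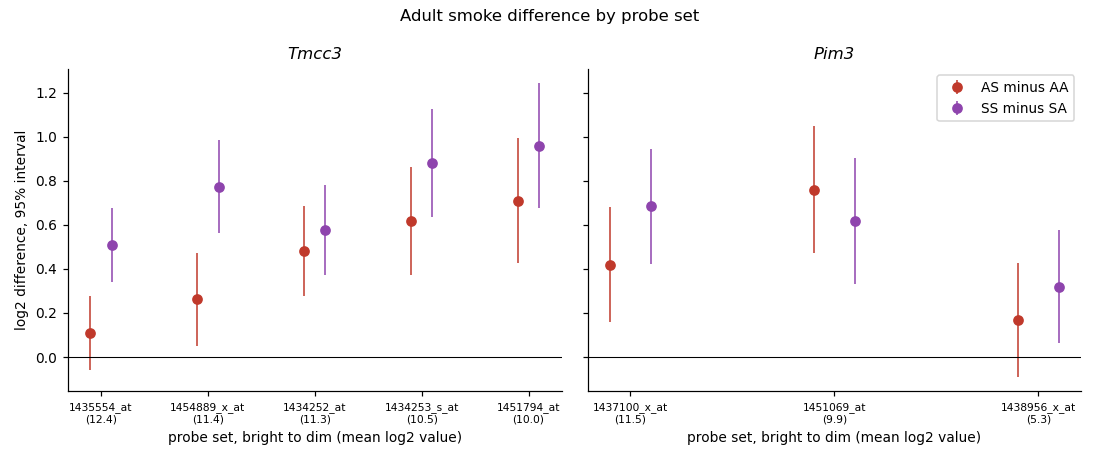
Log2 difference between adult SHS and adult air at each probe set of Tmcc3 and of Pim3, ordered from bright to dim, with 95% intervals from the fit. For Tmcc3 the AS minus AA points run from 0.11 at the brightest to 0.71 at the dimmest, and all 5 SS minus SA points lie at 0.51 or above.

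Mettl21e encodes a methyltransferase-like protein studied mainly in mouse skeletal muscle. It read 7.16, 7.24 and 7.47 in SS mice, against 5.92, 5.20, 5.71 and 6.07 in SA mice. It read 5.91, 6.13 and 6.25 in AS mice, against 5.72, 6.005, 5.36 and 6.23 in AA mice. The SS samples stood nearly 1 log2 unit above all others, and AS and AA overlapped. Mettl21e has 1 probe set, a dim one with a mean of 6.17, at percentile 39.9 of all probe sets. SS minus SA was 1.57 ± 0.20 (2.96-fold), and AS minus AA was 0.27 ± 0.20, with a 95% interval of -0.17 to 0.70. The mean of 14 skeletal muscle markers was 5.91 to 5.96 in SS samples and 5.77 to 6.17 in SA samples, and none of the 14 passed the threshold in either adult comparison.

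Smoke in utero was also compared among adults in air (SA minus AA), which reuses the control samples of both adult comparisons. None of the 10 genes passed the threshold, against 0% of all genes, and the lowest adjusted p in limma over the 22 probe sets was 0.625. The unmoderated test called 0 of the 10 as well. At an unadjusted p under 0.05, 8 of the 10 counted at their brightest probe set, against 4.95% of all genes. All 10 differences were negative, from -0.73 ± 0.21 for Errfi1 to -0.05 ± 0.07 for Tmcc3, with a median of -0.52 beside 0.00 over all genes. At the brightest probe set, every SA sample lay below every AA sample for Csrnp1, Depp1, Rasd1 and Errfi1, which is 4 of 10, against 1.66% of all genes. For Errfi1 the highest SA and the lowest AA value both round to 12.22. The second probe sets of Errfi1 and Csrnp1 overlapped between SA and AA, and that of Depp1 did not. Since low SA values raise SS minus SA, by which the genes were chosen, this direction is partly set by the choice.

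Among adults in SHS (SS minus AS), a comparison that shares all its samples with the adult comparisons, 4 of the 10 genes passed, against 1.39% of all genes. Depp1 fell by 1.28 ± 0.17 (limma adjusted p = 0.00229) and Csrnp1 fell by 1.24 ± 0.22 (adjusted p = 0.0162). Fam107a was higher by 1.23 ± 0.26 (2.34-fold, adjusted p = 0.0363) and Mettl21e by 1.20 ± 0.22 (2.29-fold, adjusted p = 0.0163). At the brightest probe sets of these 4 genes the SS and AS samples did not overlap. They overlapped at the second probe set of Csrnp1 and the dimmest of Fam107a, neither past the threshold (limma adjusted p = 0.62 and 0.155). The share of all genes without overlap was not counted for this comparison. Rasd1, at -0.83 ± 0.19, lay just outside with an adjusted p of 0.053, although its groups did not overlap either. Tmcc3 stood at 0.35 ± 0.08 (adjusted p = 0.0677), Map3k6 at 0.71 ± 0.22 (0.171) and Cebpd at -0.57 ± 0.20 (0.214). Without SS replicate 4, or without the averaged SS replicates 1 and 2, only Depp1 passed, and without AS replicate 2 the count was 2. At the brightest probe sets, Mettl21e also lost its call without SS replicate 3, and Fam107a without SS replicate 3, AS replicate 1 or the averaged AS replicates 3 and 4.

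The interaction asks whether the adult difference depended on the exposure in utero, as (SS minus SA) minus (AS minus AA). None of the 10 passed, against 0.203% of all genes, and the lowest adjusted p in limma was 0.0683, at a Fam107a probe set. At the brightest probe sets 6 of 10 had an unadjusted p under 0.05, against 7.34% of all genes, and the unmoderated test called 0. The largest values were 1.72 ± 0.34 for Fam107a (adjusted p = 0.0691), 1.30 ± 0.29 for Mettl21e (0.103) and 1.15 ± 0.30 for Map3k6 (0.174). Negative values of -0.73 ± 0.22 for Depp1 (0.267) and -0.68 ± 0.30 for Csrnp1 (0.504) stood at the other end. The interaction is built from the comparisons that chose the genes, so a call after smoke in utero alone was not shown here to be a difference between the exposures in utero. Without SA replicate 1, Fam107a passed, at 1.89.

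**Figure D4:**
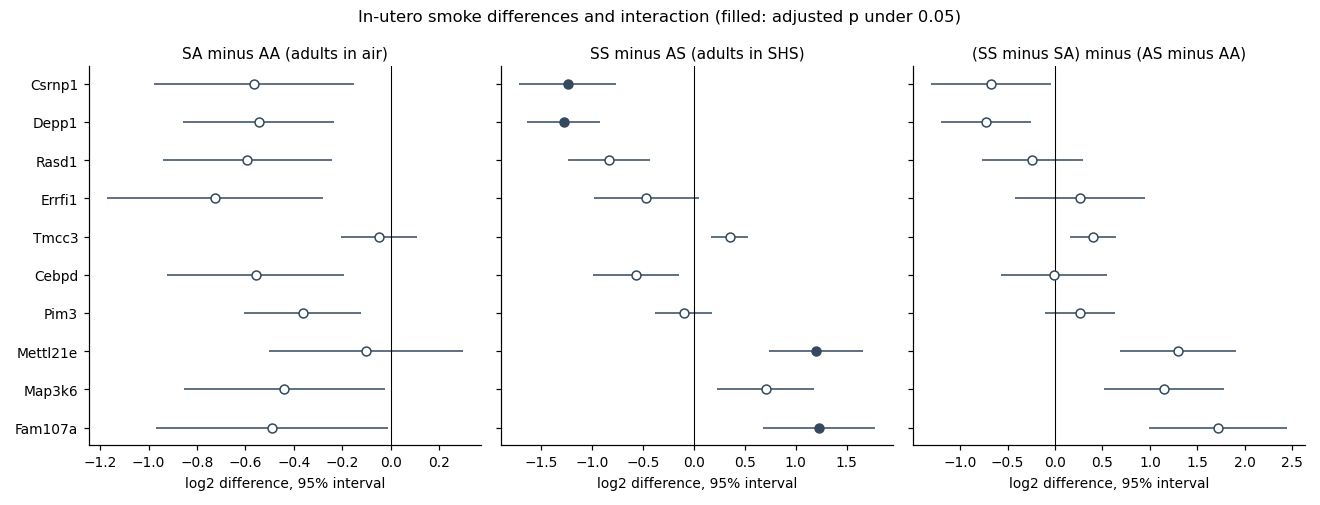
Log2 difference of each gene at its brightest probe set between in-utero SHS and in-utero air among adults in air (SA minus AA) and among adults in SHS (SS minus AS), and the interaction, with 95% intervals; filled points have an adjusted p under 0.05. All 10 points lie below 0 on the left, and Csrnp1, Depp1, Mettl21e and Fam107a are filled in the middle.

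By group mean at the brightest probe set, 6 genes stood highest in AS mice (Csrnp1, Depp1, Rasd1, Errfi1, Cebpd and Pim3) and 4 in SS mice (Tmcc3, Mettl21e, Map3k6 and Fam107a). This division was made after the values were seen and is given without a test. The SS mean exceeded the AA mean for all 10, by 0.21 for Cebpd to 1.46 for Mettl21e. Every SS sample lay above every AA sample for Tmcc3, Pim3, Mettl21e, Map3k6 and Fam107a, which is 5 of 10, against 6.76% of all genes. The 2 groups overlapped for the other 5. Since high SS values raise SS minus SA, by which the genes were chosen, the standing of SS above AA is partly set by the choice. Over the 14 samples, which share arrays and group differences, pairs of the 6 genes had Pearson correlations between 0.77 and 0.96 and pairs of the 4 had 0.83 to 0.92. Pairs across the 2 sets had 0.21 to 0.69. The medians of these 3 kinds of pairs were 0.91, 0.89 and 0.43. After the group means were taken out, they were 0.30, 0.54 and 0.26. The ranges were then 0.09 to 0.90, 0.22 to 0.78 and -0.28 to 0.74.

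Within groups the samples also differed. SS replicate 3 was the highest SS sample for Csrnp1, Depp1, Rasd1, Errfi1, Cebpd, Pim3, Tmcc3 and Fam107a, and SS replicate 4 was the lowest for Csrnp1, Rasd1, Errfi1, Cebpd and Map3k6. SA replicate 2 was the lowest SA sample for Errfi1, Tmcc3, Mettl21e, Map3k6 and Fam107a. The mean of the neutrophil markers was 8.34 in SS replicate 3, beside 8.35 and 8.12 in the other SS samples. It was 8.30 in SA replicate 2, beside 8.36, 7.74 and 7.99 in the other SA samples. The mean of the B and plasma cell markers was 7.53 in SS replicate 3, beside 8.11 and 7.95. That of the cardiac muscle markers was 10.25 in SA replicate 2, beside 9.49, 9.47 and 9.74. The part of these cells in the differences of the 10 genes was not tested.

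**Figure D5:**
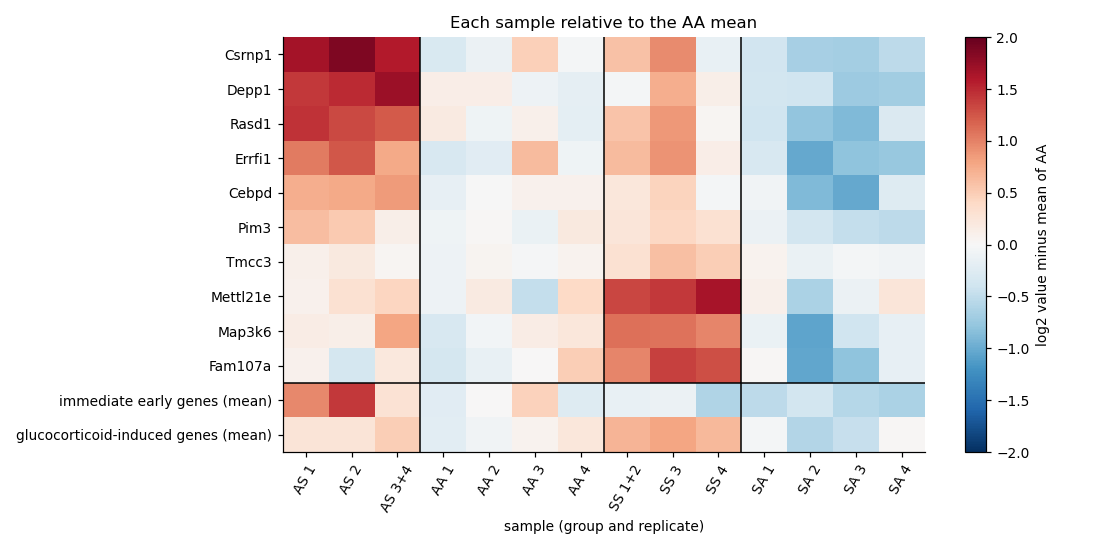
Log2 value of each gene in each of the 14 samples minus the mean of the AA samples (colour scale from -2 to 2), with the mean of 2 gene lists in the bottom rows. The immediate early row is highest in AS replicate 2 and below the AA mean in all SS samples, and the glucocorticoid-induced row is highest in the SS samples.

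For each member, the 3 other genes whose brightest probe sets ran most like it over the 14 samples were taken, among those with a mean log2 value of at least 7. Csrnp1 was nearest to Spsb2 (Pearson r = 0.965), Apold1 (0.945) and Slc25a25 (0.937). Errfi1 was nearest to Rasgef1b (0.961), Nfkbia (0.954) and Per1 (0.945), and Cebpd to Per1 (0.940), Rab3a (0.919) and Cebpb (0.916). Rasd1 was nearest to Rhob (0.946), Nfkbia (0.931) and Rab3a (0.926), Depp1 to Ppp1r15a (0.926), Borcs5 (0.920) and Rhob (0.910), and Pim3 to Nfkbia (0.879), Rasgef1b (0.857) and Cytip (0.857). Nfkbia, the inhibitor of NF-kappa-B, thus stood near Errfi1, Rasd1 and Pim3. Mettl21e was nearest to Fkbp5 (0.956), Lpin1 (0.940) and Kcnj15 (0.937), and Fam107a to Fkbp14 (0.953), Klf9 (0.953) and Kcnj15 (0.936). Map3k6 was nearest to Cdc42ep4 (0.969), Cdkn1a (0.966) and AA986860 (0.950), and Tmcc3 to Ttc39c (0.957), Slc25a33 (0.935) and Fkbp14 (0.930). These values rest on the same 14 arrays or array pairs and on group differences, and are a description.

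Immediate early genes other than the members were counted at their brightest probe sets. In AS against AA, 6 of 24 rose and none fell, with a median difference of 0.93 beside 0.02 over all genes, where 0.594% of all genes passed upward and 0.528% downward. The largest were Zfp36, which encodes an mRNA decay factor, at 1.32 ± 0.17, and Ier2 at 1.22 ± 0.20 (limma adjusted p = 0.00288 and 0.00936). In SS against SA none of the 24 rose and 1 fell, with a median of 0.15, where 0.874% of all genes passed upward and 1.04% downward. The 1 was Ier3, at -0.62 ± 0.15 (adjusted p = 0.0497). Among single samples, the list's mean was 11.40, 11.85 and 10.73 in AS mice, against 10.21, 10.45, 10.90 and 10.18 in AA mice. It was 10.28, 10.31 and 9.83 in SS mice, against 9.91, 10.06, 9.86 and 9.81 in SA mice.

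Of 16 further genes known for induction by glucocorticoids, 10 were raised in SS mice over SA mice and none was lowered. Of all genes, 0.874% passed upward and 1.04% downward there. The median difference was 0.97, beside -0.01 over all genes. Like the other lists, this list was drawn up with earlier results of these data known. The largest of the 10 were Fkbp5, a co-chaperone of the glucocorticoid receptor, at 1.97 ± 0.35 (3.91-fold, limma adjusted p = 0.01) and the clock gene Per1 at 1.498 ± 0.23 (2.83-fold, adjusted p = 0.0044). In AS against AA, where 0.594% of all genes passed upward and 0.528% downward, 1 of the 16 rose. That was Dusp1, which is also on the immediate early list, at 0.73 ± 0.14. The median in AS minus AA was 0.34, beside 0.02 over all genes. Per1 stood at 0.90 ± 0.23 (adjusted p = 0.0585) and Fkbp5 at 0.26 ± 0.35 (adjusted p = 0.691) there. The mean of the 16 was 11.11, 11.23 and 11.08 in SS mice, above all SA samples at 10.40, 9.85, 9.97 and 10.46. It was 10.69, 10.69 and 10.93 in AS mice, against 10.23, 10.36, 10.50 and 10.66 in AA mice.

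Further lists held genes that work with single members. The shares of all genes beside their counts are those given for the immediate early genes. Of 21 ERBB receptors, ligands and feedback genes around Errfi1, Spry4 rose in AS against AA, by 1.24 ± 0.19, and Lrig3 fell by 0.52 in SS against SA. Egfr itself stood at -0.34 ± 0.08 in AS minus AA (limma adjusted p = 0.0515) and 0.28 ± 0.08 in SS minus SA (0.114). Among 4 other C/EBP genes, Cebpb rose by 0.66 ± 0.13 in AS against AA and Cebpg by 0.29 ± 0.06 in SS against SA. None of 21 acute phase and C/EBP target genes passed in either comparison; Il6 had 1.30 ± 0.54 in AS minus AA (adjusted p = 0.198).

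Of 17 small GTPases and G protein regulators around Rasd1, Rgs1 (1.21 ± 0.19), Rhob (0.72 ± 0.11) and Rasd2 (0.46 ± 0.09) rose in AS against AA, and Rasl11a fell by 0.45. In SS against SA, Rrad fell by 0.76 and Rasl11a by 0.41. Of 18 genes of the ASK and stress kinase cascade around Map3k6, none passed in AS against AA. In SS against SA, Trp53inp1 rose by 0.51 ± 0.10 and Map2k6 fell by 0.43. Map3k5, which encodes ASK1, stood at 0.07 ± 0.08 in SS minus SA (adjusted p = 0.738). Of 22 FOXO and autophagy genes around Depp1, none passed in AS against AA, while Klf15 and Pdk4 rose and Ccng2 fell in SS against SA. Of 8 PIM family and substrate genes around Pim3, Cdkn1a rose in SS against SA, by 1.49 ± 0.27, and none passed in AS against AA. None of 11 TGF-beta and AXIN genes around Csrnp1 passed in either.

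Marker lists of 15 other cell types and tissues were counted in the same way, beside the same shares of all genes. In AS against AA, Scgb3a1 of the club cell list and Slc39a2 of the alveolar macrophage list were higher, and Jchain of the B and plasma cell list and Lrrn4 of the mesothelial list were lower. In SS against SA, Il1r2 of the neutrophil list was higher, by 0.91 ± 0.16, and Tcf21 of the fibroblast list was lower. The B and plasma cell list had a median difference of -0.64 in SS minus SA with none of 7 past the threshold, and its mean was 7.53 to 8.11 in SS mice and 8.28 to 8.58 in SA mice. The erythroid list had medians of -0.50 in SS minus SA and 0.46 in AS minus AA, with none of 4 past the threshold. Its mean was 9.51 in SA replicate 4, beside 7.56, 8.10 and 7.88 in the other SA samples. The part of either list in the differences of the 10 genes was not tested.

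Promoter windows were found for 7 of the 10 genes, 18 in all, from 32851 in the RefSeq table of GRCm38.p6. None was found for Rasd1, Cebpd and Mettl21e. The glucocorticoid response core stood in 3 of the 18 (16.7%, against 6.85% of all windows), AP-1 in 3 (16.7%, against 7.81%) at Csrnp1 and Tmcc3, and GCGTG in 10 (55.6%, against 32.4%) over 5 genes. Several windows overlap, so these are not separate counts: the AP-1 matches at Tmcc3 are 1 stretch in 2 overlapping windows, where they also overlap a GCGTG core. The FOXO motif GTAAACA, the E-box CACGTG and the serum response CArG box stood in none of the 18, against 3.65%, 7.15% and 1.63% of all windows. The member windows had a median GC content of 57.8%, against 52.7% over all windows.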

How the data were processed

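Total RNA of the left lung had been hybridised to 16 arrays, 4 per group. The authors deposited log2 values, 1 per probe set and array, from 2.404 to 15.11; limma, without a version, is the tool named per the submitters' processing notes. How background, normalization and probe set summary were handled is not given in the sources used here. No detection call was made, and the number of arrays limits the precision.

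Of 45101 probe sets, 64 controls were left out. Names came from the platform annotation, 34741 of them updated through Entrez identifiers to a RefSeq table; 34945 probe sets had 1 symbol, 932 several and 9160 none. Near-identical arrays were found over probe sets with a mean above 9, by the root mean square difference of the 300 most variable over that of the 3000 least variable.

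With limma 3.58.1 in R 4.3.3, the log2 values were fitted with 1 mean per group (lmFit, contrasts.fit, eBayes; 10 residual degrees of freedom). Tests were two-sided, with Benjamini-Hochberg adjustment over 45037 probe sets and a threshold of 0.05; ± gives the standard error unless named SD. The steps were tested on simulated data. The genes and the 26 gene lists (313 genes) were chosen with earlier results of these data known.

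Every probe set of the 10 genes is given. Of each list the members past the threshold were counted, and up to 4 named, those with the largest changes; further members are named where few passed. For likeness, the non-member genes with the highest Pearson correlation are named. Replicate numbers were not used to pair the samples in the main fit. The 24 same-number pairs across groups had correlations of their deviations from -0.16 to 0.25, with a median of 0.03 and 8 above 0.1. The 72 different-number pairs had -0.30 to 0.31, with a median of -0.02 and 11 above 0.1. These values do not settle whether the numbers pair the samples. P-values measure the spread between the samples the labels call biological replicates. The alternatives were all 16 arrays counted apart, 2-group fits, array weights, a trended robust fit, an unmoderated test, quantile normalization, median centring, a filter on dim probe sets, 1 probe set per gene, a replicate block and each replicate left out.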

Additional observations from a re-analysis of the deposited data

How the results depend on the processing

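The counts of the 10 genes past the threshold changed with the fit, as did those over the 45037 probe sets, at 699 in AS against AA, 737 in SS against SA, 436 in SS against AS and 59 in the interaction. With the 2 groups of a comparison fitted alone, 4 genes passed in AS against AA (47 probe sets of the array) and 3 in both adult comparisons. The unmoderated test called 3 in AS against AA (205 probe sets), 4 in SS against SA (302), 0 in both and 1 in SS against AS (101). With 1 probe set per gene, 4 passed in AS against AA (179) and 4 in both. Counting 16 arrays apart gave 8 in SS against AS (2214) and 2 in the interaction (330), Mettl21e and Fam107a. Array weights gave 7 (1181) and 3 (205). Leaving out 1 sample gave 4 to 7 in AS against AA, 5 to 10 in SS against SA, 2 to 7 in both, 1 to 5 in SS against AS and 0 to 1 in the interaction. SA against AA stayed at 0 under every alternative run. In both, the count was 2 without SS replicate 3, 3 without SA replicate 3 or the averaged SS replicates 1 and 2, and 4 without AA replicate 2 or SA replicate 2. Over the 45037 probe sets, leaving out 1 sample moved the counts as well. AS against AA ran from 185 without AA replicate 2 to 905 without AS replicate 2. SS against SA ran from 171 without SS replicate 3 to 1014 without the averaged AS replicates 3 and 4. SS against AS ran from 136 to 507 and the interaction from 23 to 115, each lowest without SS replicate 4.

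The replicate block, on 16 arrays, gave 7 in AS against AA (3761 probe sets), 10 in SS against SA (1268) and 7 in both. It gave 7 in SS against AS (2364) and 3 in the interaction (529). The labels do not say that the numbers pair the samples, and this fit counts the near-identical arrays apart. The interaction cannot be fitted on 2 groups.

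No difference past the threshold changed sign. Among the others, Fam107a AS minus AA turned to 0.0369 (16 arrays, also with the replicate block), 0.0248 (quantile normalization) and 0.15 (without AA replicate 4, or without AS replicate 2), with -0.14 as its lowest value on leaving out 1 sample. Mettl21e SA minus AA turned to 0.03 without AA replicate 4 and 0.0736 without SA replicate 2, with -0.26 as its lowest. The Cebpd interaction turned to 0.12 (array weights), 0.04 (without AA replicate 1), 0.01 (without AS replicate 3), 0.02 (without AS replicates 3 and 4), 0.15 and 0.09 (without SA replicate 1 or 4) and 0.11 (without SS replicate 4), with -0.17 as its lowest. The cause was not tested. The dim-probe filter leaves out Mettl21e.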
